A study of Rattus norvegicus with 6 samples.

Results

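This report describes 9 genes, Mbp, Mobp, Mog, Mag, Cnp, Mal, Opalin, Cldn11 and Myrf, of the 30560 genes counted in single nuclei of rat brain 48 h after ischemic stroke. The genes were taken by symbol, and all 9 were found. Their identifiers are ENSRNOG00000016516 (Mbp), ENSRNOG00000018700 (Mobp), ENSRNOG00000000775 (Mog), ENSRNOG00000021023 (Mag), ENSRNOG00000017496 (Cnp), ENSRNOG00000015445 (Mal), ENSRNOG00000022386 (Opalin), ENSRNOG00000010263 (Cldn11) and ENSRNOG00000028274 (Myrf). All animals were wild type male Wistar rats of 12 weeks. In the MCAO rats a filament closed the right middle cerebral artery for good, whereas the Sham rats had the operation without the filament. The 6 libraries were Sham L and Sham R (left and right hemispheres of 4 Sham rats), mMCAO contra and mMCAO ipsi (the hemisphere opposite the lesion and the lesioned hemisphere of 3 rats, moderate infarction), and likewise sMCAO contra and sMCAO ipsi (4 rats, severe infarction). They form the groups Sham, MCAO contra and MCAO ipsi, each of 2 libraries. Each library pooled nuclei from coronal slices around the largest extent of the lesion, so no value can be given for a single rat. Libraries were not independent replicates, because both Sham libraries came from the same rats, contra and ipsi libraries of a severity shared their rats, and the MCAO libraries of a group differed in severity. The p-values measure the spread between such libraries.

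Myelin is the lipid-rich membrane that oligodendrocytes wrap around axons. MBP holds the cytoplasmic faces of the membrane together, and MOBP is another small basic protein of compact myelin. MOG lies on the outermost surface, MAG lies next to the axon and binds it, and CNP keeps channels of cytoplasm open between the layers. MAL takes part in sorting myelin cargo to the membrane, CLDN11 forms the tight junctions of the sheath, and OPALIN is a membrane glycoprotein of oligodendrocytes. MYRF is the transcription factor of the group. It is made as a membrane protein, cuts itself, and its free part enters the nucleus and switches on genes of myelination. Sox10, a factor of the Sox family, works with it. Precursors (OPC) turn into newly formed oligodendrocytes and then into mature ones, and the myelin genes are known to come on along this path. The Mbp locus also makes Golli transcripts in neurons, OPC and immune cells, which these counts per gene did not separate from Mbp proper.

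The stretch of 250 bases before the start of a gene was read from the RefSeq table (build GRCr8) for 6 of the 9 genes. Mog and Myrf had no stretch in it, and Mbp was not read. Of the 6, 4 are shown. Mobp, Mal and Opalin were furthest below their mature level in newly formed oligodendrocytes (below), while Cnp was not called there. The counts were made on another build, mRatBN7.2. Capitals mark CTGGCAC or CTGGTAC, the core of the motif known for MYRF, and AACAAAG or AACAATG, a core that Sox factors bind, searched on both strands without overlap between them. Mobp lies at chr8:128746982-128747231 (plus strand), Mal at chr3:135341424-135341673 (minus strand), Opalin at chr1:249858191-249858440 (minus strand) and Cnp at chr10:86011254-86011503 (plus strand), all upstream of the annotated start.
Mobp: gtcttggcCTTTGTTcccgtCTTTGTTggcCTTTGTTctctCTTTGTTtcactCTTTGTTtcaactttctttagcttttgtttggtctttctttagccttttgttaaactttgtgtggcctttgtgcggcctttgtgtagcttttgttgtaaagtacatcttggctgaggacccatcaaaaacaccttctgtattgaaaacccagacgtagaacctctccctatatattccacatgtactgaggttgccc
Mal: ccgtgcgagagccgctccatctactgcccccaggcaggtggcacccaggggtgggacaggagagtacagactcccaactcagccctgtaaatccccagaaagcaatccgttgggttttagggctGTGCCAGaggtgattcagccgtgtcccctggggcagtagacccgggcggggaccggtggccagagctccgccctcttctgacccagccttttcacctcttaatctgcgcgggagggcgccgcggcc
Opalin: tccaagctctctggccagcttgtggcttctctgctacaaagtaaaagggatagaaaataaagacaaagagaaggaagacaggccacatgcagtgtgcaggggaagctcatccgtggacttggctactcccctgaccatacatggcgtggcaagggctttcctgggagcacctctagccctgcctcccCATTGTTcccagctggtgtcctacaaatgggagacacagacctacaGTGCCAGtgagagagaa
Cnp: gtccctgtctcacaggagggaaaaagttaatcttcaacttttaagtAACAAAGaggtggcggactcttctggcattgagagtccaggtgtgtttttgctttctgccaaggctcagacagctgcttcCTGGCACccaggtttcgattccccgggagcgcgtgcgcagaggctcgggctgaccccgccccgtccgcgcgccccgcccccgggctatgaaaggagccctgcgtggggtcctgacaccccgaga
The Mobp stretch held AACAAAG 5 times, always read on the opposite strand as CTTTGTT, between 242 and 197 bases before the start, and no MYRF core. In contrast, the Mal stretch held CTGGCAC 126 bases before the start and no Sox core. The Opalin stretch held CTGGCAC at 17 bases and AACAATG at 63 bases before the start, and the Cnp stretch held CTGGCAC at 124 and AACAAAG at 204 bases. Mag (CTGGCAC at 94 bases) and Cldn11 (CTGGTAC at 120 bases) each held a MYRF core as well. Of all 33469 stretches of this length, 5.48% held either MYRF core and 8.36% held either Sox core. These are matches of letters, and binding was not measured here.

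Nuclei were assigned to cell classes by marker genes that did not include any of the 9. A nucleus within the study's limits was called mature-gated with at least 2 UMIs (unique molecular identifiers, 1 per captured RNA molecule) and 1000 CPM (UMIs of a gene scaled to a total of 1000000 UMIs of all genes) of St18 and Rnf220 and no Neu4 or Bmp4. It was called newly formed-gated with at least 1 UMI and 500 CPM of Neu4 and Bmp4 and no OPC marker. Both gates also asked for under 2000 CPM of neuron markers. This left 381, 120, 973, 597, 644 and 1042 mature-gated and 31, 33, 64, 65, 46 and 59 newly formed-gated nuclei in Sham L, Sham R, mMCAO contra, mMCAO ipsi, sMCAO contra and sMCAO ipsi, the order used for all lists of values below. The thresholds rest on few UMIs. Of the mature-gated nuclei 190, 58, 341, 246, 243 and 208 had exactly 2 UMIs of the gate genes, and 226, 92, 372, 249, 241 and 136 nuclei of no class had 1 UMI. Likewise, 28, 27, 51, 47, 34 and 38 of the newly formed-gated nuclei had a single UMI of Neu4 or Bmp4. Markers left out of the gates went with the names. The sum of 5 markers of mature oligodendrocytes (Prr5l, Aspa, Gjb1, Enpp2 and Ermn) was 2044 to 2374 CPM in mature-gated and 578 to 1275 CPM in newly formed-gated nuclei, and the sum of 6 markers of newly formed ones (Enpp6, Gpr17, Bcas1, Tcf7l2, Itpr2 and Fyn) was 2221 to 3277 and 9653 to 13573 CPM.

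The libraries held 33012945 to 52513380 UMIs in 8774 to 14508 nuclei, and 3022 of 70713 barcodes occurred in more than 1 library. The library sMCAO ipsi stood apart. Its mature-gated nuclei had a median of 1245.5 UMIs against 695 to 808 in the other libraries, and the 10 neuron markers summed to 187 CPM in them against 528 to 823 CPM. The share of 2 mitochondrial transcripts, AY172581.24 and AY172581.9, was 1.003% there against 0.0447% to 0.232%.

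Mbp gave the most UMIs of the 9 genes in mature-gated nuclei, with a pooled share of 50.03%, followed by Mobp with 13.1%. These shares are not levels per length of transcript and do not rank the genes. Together the 9 genes gave 9961, 9438, 11293, 9541, 11761 and 9573 CPM, or 8.63, 7.74, 11.3, 8.51, 10.6 and 13.6 UMIs per nucleus. Sums of UMIs over nuclei thus differed most in sMCAO ipsi, whose nuclei were deeper, while its CPM lay close to that of mMCAO ipsi. In newly formed-gated nuclei the sum was 5615, 3759, 4143, 3812, 4519 and 5124 CPM, below the mature-gated sum in 6 of 6 libraries. Mbp took 62.2% of it and Mobp 6.77%, whereas the share of Myrf was 5.93% against 2.68% in mature-gated nuclei. After each nucleus was thinned to 500 UMIs, 93.2% to 98.4% of the mature-gated nuclei and 50% to 80.6% of the newly formed-gated nuclei had a UMI of at least 1 of the genes (unthinned 96.7% to 99.3% and 56.2% to 83.9%). Many newly formed-gated nuclei thus held none of the 9 genes, which was rare in mature-gated nuclei.

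**Figure D1:**
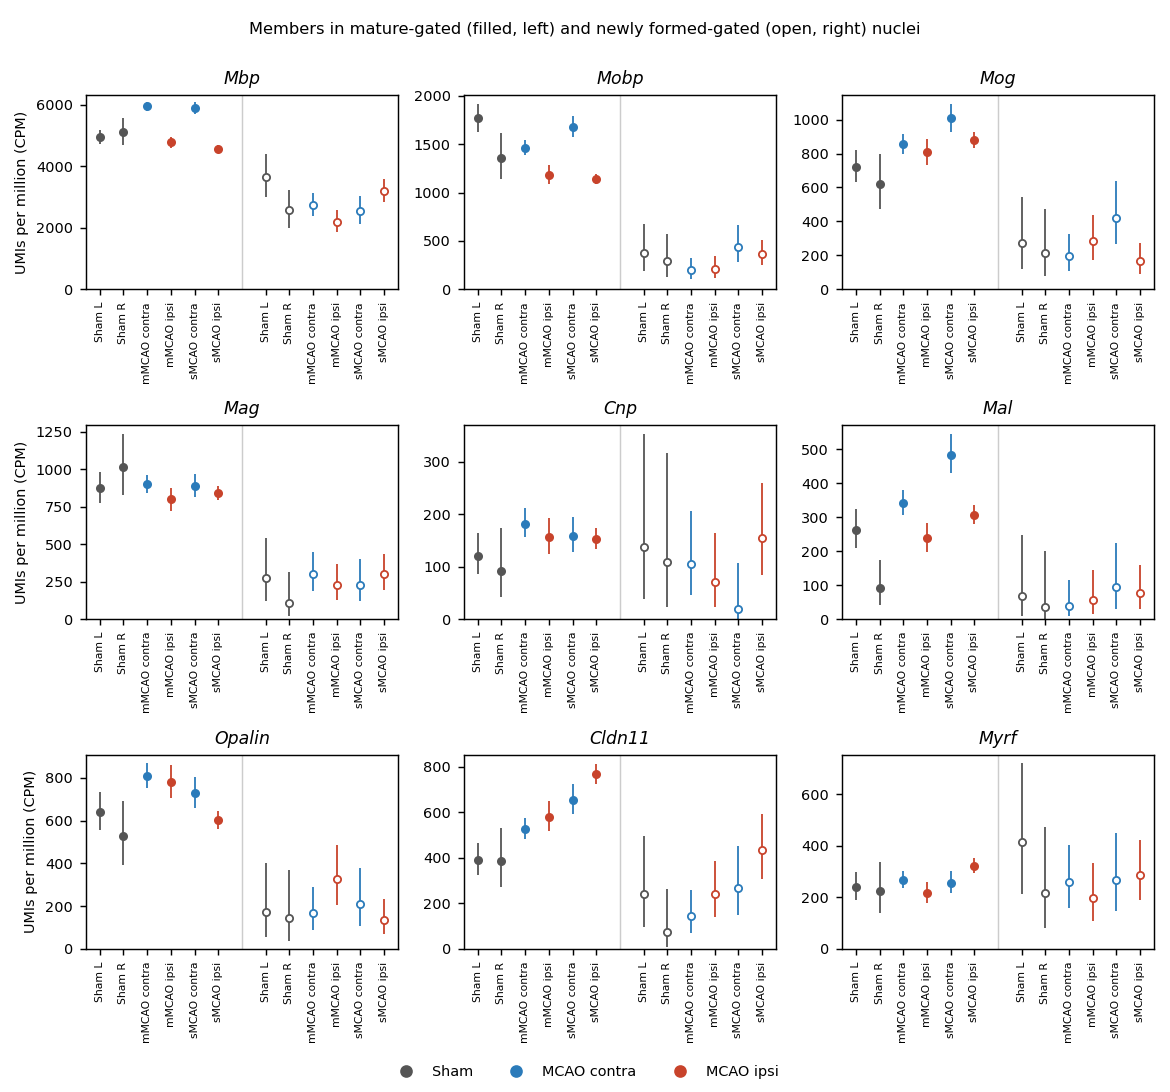
Levels of the 9 genes in CPM (y axis, from 0) in each library (x axis) in mature-gated (filled) and newly formed-gated nuclei (open), coloured by group, with bars for the 95% Poisson interval of the count, which covers counting error only. Mobp was 1137 to 1766 CPM in mature-gated and 196 to 442 CPM in newly formed-gated nuclei, whereas Myrf overlapped between the 2 stages.

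The first comparison asked how the genes differ between newly formed and mature oligodendrocytes of the same library. Of the 9 genes, 7 were lower at the newly formed stage, namely Mal, Mobp, Opalin, Mag, Mog, Cldn11 and Mbp, and Cnp and Myrf were not called. For these sums edgeR called 937 of 2993 genes (31.3%), of which 457 (15.3% of those tested) were lower and 480 (16%) higher in newly formed-gated nuclei. A call needed an adjusted p below 0.05 and a change of at least 0.6 on the log2 scale. The gate genes themselves were, as the gates require, at 10.95 (Bmp4), 10.33 (Neu4), -2.32 (Rnf220) and -1.74 (St18) log2.

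Mobp, of compact myelin, was lower at the newly formed stage in each library. It was 1766, 1361, 1462, 1184, 1678 and 1137 CPM in mature-gated nuclei. In newly formed-gated nuclei it was 379, 289, 196, 212, 442 and 366 CPM. The 2 stages did not overlap, and the log2 fold change was -2.18 (SE 0.18, adjusted p = 6.92e-11), a 4.52-fold lower level. Mbp was lower as well. It was 4947, 5120.1, 5949, 4778, 5900.45 and 4567 CPM in mature-gated nuclei. It was 3652, 2567, 2731, 2203, 2558 and 3205 CPM in newly formed-gated nuclei, again with no overlap. The log2 fold change was -0.88 (SE 0.15, adjusted p = 1.46e-05). Golli transcripts, if present, are part of both values. How many of all genes had no overlap between the stages, as Mobp and Mbp had none, was not counted.

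The surface and adhesion genes lay between them. Mag was 798 to 1016 CPM in mature-gated and 108 to 301 CPM in newly formed-gated nuclei (log2 fold change -1.78, SE 0.19, adjusted p = 5.82e-09). Mog was 620 to 1008 and 166 to 423 CPM (-1.71, SE 0.19, adjusted p = 1.40e-08). Neither gene overlapped between the stages, an order that was not counted over all genes. Opalin was 528 to 808 and 133 to 325 CPM (-1.82, SE 0.19, adjusted p = 7.51e-09), and Cldn11 was 386 to 767 and 72.3 to 433 CPM (-1.23, SE 0.20, adjusted p = 7.74e-06). Cldn11 overlapped across libraries, since newly formed-gated nuclei of sMCAO ipsi (433 CPM) were above mature-gated nuclei of both Sham libraries, but within each library the newly formed-gated value was the lower. Mal rested on few molecules. It had 2, 1, 3, 4, 5 and 7 UMIs in newly formed-gated nuclei, 36.1 to 96.1 CPM, against 91.4 to 485 CPM in mature-gated nuclei (-2.24, SE 0.26, adjusted p = 3.37e-08).

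Cnp and Myrf did not follow the others. Cnp, an early gene of the lineage, was 138, 108, 105, 70.6, 19.2 and 155 CPM in newly formed-gated nuclei, from 1 to 14 UMIs a library. It was 121, 91.4, 182, 156, 159 and 152 CPM in mature-gated nuclei, so that the newly formed-gated value was the lower in 3 of 6 libraries. Its log2 fold change was -0.59 (95% interval -1.17 to 0.00, adjusted p = 0.122), and it was called without sMCAO ipsi (-0.87). Myrf was 413, 217, 261, 198, 269 and 288 CPM at the newly formed stage. It was 239, 223, 267, 218, 257 and 323 CPM at the mature stage. The levels of Myrf overlapped throughout, with a log2 fold change of 0.06 (95% interval -0.32 to 0.44, adjusted p = 0.931).

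**Figure D2:**
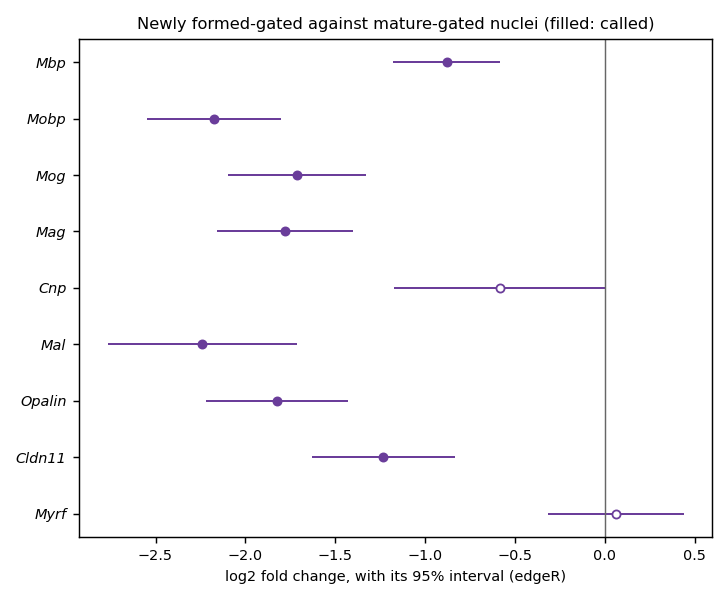
Log2 fold change of each gene (x axis) between newly formed-gated and mature-gated nuclei of the same library with its 95% interval from edgeR, over 6 libraries, where filled points were called and open points were not. Mal (-2.24) and Mobp (-2.18) lay furthest to the left, and Myrf (0.06) lay at 0.

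Other genes of myelin were counted from lists. A gene can pass the filter on low counts through the stage where it is high, so the counts and medians below depend on that filter. Of 18 genes of the membrane, junctions and paranode, 13 could be tested, of which 8 were lower and 2 higher in newly formed-gated nuclei (median log2 fold change -0.86, against 0.02 over all genes tested). The 6 with the largest change were Cmtm5 (-2.37), Ermn (-1.76), Hapln2 (-1.69), Enpp2 (-1.33), Lpar1 (-1.27) and Cntn2 (-1.14). The 2 higher genes, named after their values were seen, were the deacetylase Sirt2 (0.97) and the tetraspanin Cd9 (0.81). Of 10 genes of lipid synthesis, 7 could be tested, and 5 were lower and 1 higher (median -0.77). Elovl1 (-1.66) and Elovl7 (-1.53), which lengthen fatty acids, Aspa (-1.20), which frees acetate from N-acetylaspartate, Hmgcs1 (-0.77) of sterol synthesis and Ugt8 (-0.67), which makes galactolipids, fell, and the sphingomyelin synthase Sgms1 (0.63) rose. Of 12 transcription factors and partners of MYRF, 6 could be tested, and 4 were higher and 1 lower (median 1.59). Myt1 (3.42), Tcf7l2 (2.38), Zfp488 (2.37) and Sox10 (0.81) were higher at the newly formed stage. Tcf7l2, Ermn, Enpp2 and Aspa were also among the markers that checked the gates. Tmem98, a membrane protein that binds MYRF and blocks its self-cleavage, was lower (-2.50).

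The next comparisons asked whether the genes changed after stroke within mature-gated nuclei. None of the 9 was called in MCAO ipsi against Sham, in MCAO ipsi against MCAO contra or in MCAO contra against Sham. On simulated counts for MCAO ipsi against Sham, 11.94% of changes of 1 on the log2 scale were recovered. Those changes were placed in genes drawn at random from all tested, so the share for the 9 genes is not known. A missing call does not show an unchanged level. The mature gate of 2 UMIs lets in nuclei at a lower CPM of St18 and Rnf220 where nuclei are deeper. Median depth of mature-gated nuclei was 1245.5 UMIs in sMCAO ipsi against 695 to 808 in the other libraries. The part of the gate in the differences between groups was not tested. The values of Cldn11, Cnp and Mog were above both Sham libraries in all 4 MCAO libraries. Those of Mobp, Mbp and Mag were lowest in the lesioned hemispheres. How many of all genes had these orders was not counted. In MCAO ipsi against Sham, edgeR called 262 of 7779 genes (3.37%), 81 higher and 181 lower (102 and 77 when genes high in neurons were left out), with 2 members (Cldn11 and Mobp) and 18% of all genes at an unadjusted p below 0.05 and no member called by DESeq2. In MCAO ipsi against MCAO contra it called 59 genes (0.758%), 52 higher and 7 lower (172 and 52 without the genes high in neurons), with 2 members (Mbp and Mobp) and 14.9% of all genes at an unadjusted p below 0.05 and no member called by DESeq2. In MCAO contra against Sham it called 0 genes (0%), with 553 genes (7.11%), 4 members among them (Cldn11, Cnp, Mal and Mog), at an unadjusted p below 0.05, while DESeq2 called 1 gene, which was no member. The comparisons share libraries and are not independent of each other.

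Cldn11 was 391 and 386 CPM in the Sham libraries. It was 528 and 654 CPM in mMCAO contra and sMCAO contra, and 581 and 767 CPM in mMCAO ipsi and sMCAO ipsi. All 4 MCAO libraries lay above both Sham libraries, and sMCAO ipsi was the highest. The log2 fold change of MCAO ipsi against Sham was 0.78 (SE 0.21, 95% interval 0.32 to 1.24, adjusted p = 0.0727), that of MCAO contra against Sham 0.62 (95% interval 0.16 to 1.08, adjusted p = 0.691) and that of MCAO ipsi against MCAO contra 0.16 (95% interval -0.25 to 0.58, adjusted p = 0.774). The first passed the threshold without mMCAO ipsi (0.97, adjusted p = 1.08e-05) and not without sMCAO ipsi (0.58, adjusted p = 0.122), and over 17 other settings its adjusted p ran from 1.08e-05 to 0.371. MCAO contra against Sham passed without mMCAO ipsi (0.64, adjusted p = 0.0197) and without sMCAO ipsi (0.64, adjusted p = 0.0295), libraries outside the groups compared that set the shared estimate of spread.

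Mal varied most. It was 264 CPM in Sham L and 91.4 CPM in Sham R, from 87 and 9 UMIs, a ratio of 0.347 (95% interval 0.154 to 0.689) between hemispheres of the same rats. It was 342 and 485 CPM in mMCAO contra and sMCAO contra, and 239 and 307 CPM in mMCAO ipsi and sMCAO ipsi. The 2 MCAO contra libraries were the highest, and Sham R the lowest. The log2 fold change was 1.01 (SE 0.34, adjusted p = 0.691) for MCAO contra against Sham, 0.40 (SE 0.34, adjusted p = 0.626) for MCAO ipsi against Sham and -0.61 (SE 0.29, adjusted p = 0.371) for MCAO ipsi against MCAO contra. The first was 0.66 without Sham R and 2.28 without Sham L, and neither of these was called. It was called without mMCAO ipsi (0.96, adjusted p = 0.000255) and without sMCAO ipsi (0.95, adjusted p = 0.00227). The last passed the threshold without sMCAO ipsi (-0.81, adjusted p = 0.0272), and over 18 settings its adjusted p ran from 0.0272 to 0.9999.

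The genes of compact myelin, Mobp and Mbp, had their lowest values in the lesioned hemispheres, and so did Mag (below). Mobp was 1184 CPM in mMCAO ipsi and 1137 CPM in sMCAO ipsi, below the other 4 libraries (1361 to 1766 CPM). Mbp was 4778 and 4567 CPM there, likewise below the other 4 (4947 to 5949 CPM). The log2 fold change of MCAO ipsi against MCAO contra was -0.47 (SE 0.17, adjusted p = 0.233) for Mobp and -0.38 (SE 0.13, adjusted p = 0.212) for Mbp. Against Sham it was -0.46 (SE 0.18, adjusted p = 0.195) and -0.12 (SE 0.13, adjusted p = 0.728). Neither Mobp nor Mbp was called under any other setting of these comparisons. The largest drop of Mobp was -0.64, where its adjusted p did not pass. Under another setting of each comparison the adjusted p of Mobp did fall below 0.05, but its change was under 0.6. The same held for Mbp against MCAO contra. Within the rats of 1 severity, the ratio of the lesioned to the opposite hemisphere was 0.803 (95% interval 0.766 to 0.842) in moderate and 0.774 (0.743 to 0.807) in severe infarction for Mbp. For Mobp it was 0.810 (0.736 to 0.890) and 0.678 (0.626 to 0.734), and for Mal 0.698 (0.564 to 0.859) and 0.632 (0.543 to 0.736). These intervals cover counting error between 2 pooled libraries and not the spread between rats.

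Of the remaining genes none was called either. The log2 fold changes of MCAO ipsi against Sham were 0.43 for Cnp, 0.30 for Mog, 0.19 for Opalin and -0.21 for Mag, with adjusted p from 0.371 to 0.685. Against MCAO contra they were -0.19, -0.18, -0.20 and -0.16. MCAO contra against Sham gave 0.62 for Cnp, 0.47 for Mog, 0.39 for Opalin, 0.26 for Mbp, 0.01 for Mobp and -0.04 for Mag. Myrf was at 0.21, 0.04 and 0.18 in the 3 comparisons, with adjusted p from 0.723 to 0.982. Its 95% intervals were -0.30 to 0.72, -0.41 to 0.48 and -0.34 to 0.69. Without sMCAO ipsi the first of these changes was -0.11 and the second -0.31, so that the direction of Myrf rested on that library. The libraries of MCAO ipsi differed for some of these genes, as Myrf was 1.48 times as high in sMCAO ipsi as in mMCAO ipsi (95% interval 1.21 to 1.83) and Opalin 0.772 times (0.686 to 0.869). The ratio of Myrf between the lesioned and the opposite hemisphere was 0.817 (0.651 to 1.02) in moderate and 1.26 (1.04 to 1.52) in severe infarction. The median log2 fold change of the 9 was 0.21 in MCAO ipsi against Sham, -0.19 in MCAO ipsi against MCAO contra and 0.39 in MCAO contra against Sham, beside 0.02, 0.01 and -0.01 over all genes. The sum of neuron markers in the same nuclei was 815 and 823 CPM in Sham and 530 and 187 CPM in MCAO ipsi, and their part in these values was not tested.

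**Figure D3:**
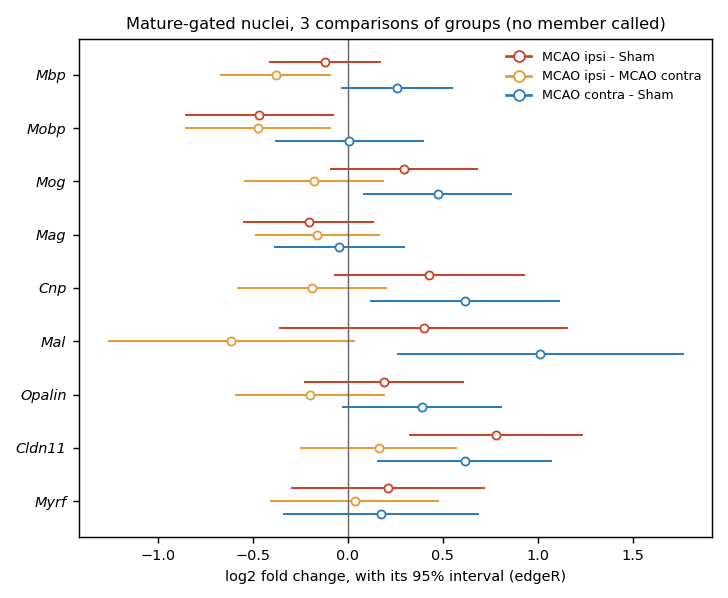
Log2 fold change of each gene (x axis) in mature-gated nuclei for MCAO ipsi against Sham, MCAO ipsi against MCAO contra and MCAO contra against Sham, 2 libraries a group, with 95% intervals from edgeR and open points throughout because no gene was called. Cldn11 in MCAO ipsi against Sham was at 0.78 and Mal in MCAO contra against Sham at 1.01.

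Among the other genes of myelin, few were called between groups in mature-gated nuclei. In MCAO ipsi against Sham, Nfasc, which anchors the paranode to the axon, fell by 1.02 on the log2 scale (SE 0.17, adjusted p = 0.0281), the only call among the 18 genes of membrane, junctions and paranode. Tcf7l2, a factor of the newly formed stage, fell by 1.44 (SE 0.32, adjusted p = 0.0412), the only call among the 10 factors and partners tested. Neuron markers fell in the same nuclei (815 and 823 CPM in Sham, 530 and 187 CPM in MCAO ipsi). Their part in these calls was not tested. Neither call held without Sham L (adjusted p = 0.216 and 0.0505), without Sham R (0.195 for both) or without mMCAO contra (0.0670 and 0.0701). None of the 9 lipid genes tested was called, and no list gene was called by edgeR in either of the other comparisons.

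A further comparison took nuclei with a strong heat-shock signal, at least 10000 CPM of 7 chaperone genes. Such a signal was found in 7 nuclei that met the mature gate, all of them in sMCAO ipsi, so that no test between libraries was possible. They held 82 UMIs of the 9 genes, a sum of 10023 CPM and 1.05 times (95% interval 0.832 to 1.30) that of the other mature-gated nuclei of sMCAO ipsi. Because 7 nuclei say little, all heat-shock-high nuclei without markers of another class were added after the data were seen. In sMCAO ipsi 25 of them (the 7 included) had at least 1 UMI of St18 or Rnf220 and 93 had none, and mMCAO ipsi had 3 of the latter kind. The 93 meet no oligodendrocyte gate and are not named as such, and they held 394 CPM of the 5 mature markers outside the gates, against 1008 CPM in the 25 and 2044 CPM in mature-gated nuclei of sMCAO ipsi.

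The 9 genes did not move together in these nuclei. Cnp was at 657 CPM in the 25 nuclei and 628 CPM in the 93, against 152 CPM in mature-gated nuclei of the same library. This was a ratio of 4.32 (95% interval 2.38 to 7.27) and 4.12 (2.98 to 5.61). Mal rose alongside, at 1139 and 936 CPM against 307 CPM, a ratio of 3.72 (2.40 to 5.52) and 3.05 (2.36 to 3.90). Cldn11 was at 1446 and 960.2 CPM against 767 CPM, a ratio of 1.89 (1.29 to 2.66) and 1.25 (0.983 to 1.58). Cnp and Mal were thus higher in both sets beyond counting error, and Cldn11 only in the first, although the intervals of its 2 ratios overlap. By contrast, Mbp was at 2541 and 1711 CPM against 4567 CPM, a ratio of 0.556 (0.422 to 0.720) and 0.375 (0.314 to 0.443). The 4 other genes of the sheath were lower too in the 93 nuclei. Mog was at 0.399 (0.172 to 0.789) and 0.210 (0.117 to 0.348), Mobp at 0.655 (0.381 to 1.05) and 0.303 (0.201 to 0.440), Opalin at 0.801 (0.398 to 1.44) and 0.348 (0.202 to 0.560), and Mag at 0.782 (0.436 to 1.29) and 0.498 (0.343 to 0.700). Myrf was at 0.948 (0.379 to 1.97) and 0.913 (0.579 to 1.38), within counting error of 1 in both sets. The 93 nuclei were picked for no UMI of St18 or Rnf220 and the 25 for at least 1, whereas mature-gated nuclei needed at least 2 and 1000 CPM. St18 and Rnf220 summed to 1753 CPM in the 25, against 3536 CPM in mature-gated nuclei of sMCAO ipsi. Across classes St18 went with the mean of the 9 genes (Pearson r = 0.953). A lower level in the 93 or in the 25 thus cannot be told apart from this choice. In the 7 nuclei the ratio was 7.23 (3.26 to 14.0) for Cnp from 9 UMIs, 2.07 (1.1001 to 3.56) for Cldn11 from 13 UMIs and 0.797 (0.0963 to 2.90) for Mal from 2 UMIs. There Mbp (3789 CPM), Mobp (611 CPM) and Mag (611 CPM) lay below the mature-gated values of all libraries. Mog (733 CPM) lay within its mature-gated range (620 to 1008 CPM). Opalin (856 CPM) and Myrf (489 CPM) lay above theirs (528 to 808 and 218 to 323 CPM). Apart from Mbp with 31, these genes had 4 to 7 UMIs each.

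RNA quality moved with these ratios. Mitochondrial mRNA was 2.14% of UMIs in the 25 nuclei and 1.47% in the 93, against 0.280% in mature-gated nuclei of sMCAO ipsi. The 2 mitochondrial transcripts named above made up 7.49% and 6.92% against 1.003%. Their part in the ratios was not tested.

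**Figure D4:**
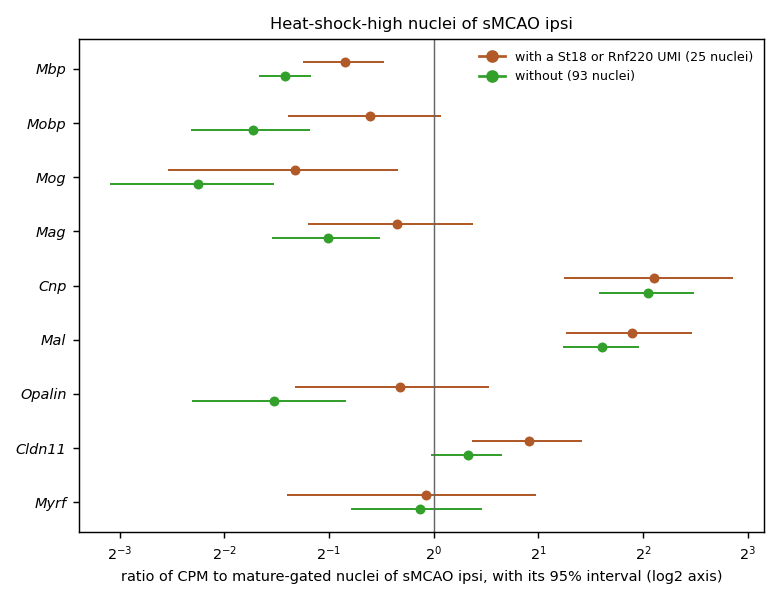
Ratio of CPM (x axis, log2 scale) in heat-shock-high nuclei of sMCAO ipsi, with (25 nuclei) and without (93 nuclei) a UMI of St18 or Rnf220, to mature-gated nuclei of the same library, with 95% intervals that cover counting error only. Cnp (4.32 and 4.12) and Mal (3.72 and 3.05) lay to the right of 1, and Mbp (0.556 and 0.375) and Mog (0.399 and 0.210) to its left.

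The 9 genes were also read in nuclei of other classes, where free RNA or debris can carry them. Mature-gated nuclei held 12.1% to 58.5% of a library's UMIs of the 9 genes, lowest in Sham R and highest in sMCAO ipsi. Neuron-gated nuclei, which are far more numerous, held 30.4%, 42.7%, 18.6%, 22.3%, 21.9% and 8.84%. Nuclei of no class held another 26.0% to 46.1%. Over all deposited nuclei the 9 genes summed to 365, 222, 539, 365, 557 and 742 CPM, with sMCAO ipsi highest. These totals follow the mix of nuclei as well as the level in each, and the 2 cannot be told apart in such a total.

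Outside the oligodendrocyte gates, UMIs of the 9 genes were found in every class. Their sum was 127, 111, 118, 97.2, 151 and 104 CPM in neuron-gated nuclei. It was 104 to 321 CPM in vascular-gated nuclei, lower than in neurons in Sham L (117 CPM) and at the same rounded value in sMCAO ipsi (104 CPM), and 186 to 1009.8 CPM in OPC-gated and 215 to 1148 CPM in astrocyte-gated nuclei. Per nucleus, neurons held more UMIs of the 9 (0.309 to 0.773) than vascular nuclei (0.174 to 0.333) in each library. In myeloid-gated nuclei (microglia and other phagocytes) the sum was 3019, 2230.2, 1427, 768, 1155 and 379 CPM. The myeloid value was thus above the neuron, vascular, OPC and astrocyte value in each library. It was high where myeloid nuclei were few (27 and 34 in the Sham libraries) and low where they were many (883 in mMCAO ipsi and 1530 in sMCAO ipsi). The 5 mature oligodendrocyte markers outside the gates summed to 1480, 1257, 967, 676, 828 and 415 CPM in myeloid-gated nuclei. They had the same order of libraries as the 9 genes. Oligodendrocyte RNA or nuclei mixed into this class were not separated, and the myeloid value is not read as expression. Vascular and OPC values rested on as few as 11 nuclei a library and overlapped with each other. After thinning to 500 UMIs, 4.30% to 6.08% of neuron-gated nuclei (unthinned 17.9% to 35.7%, median depth 2487 to 6964 UMIs) had a UMI of any of the 9. Vascular-gated nuclei, given for comparison, had 4.55% to 19.0% in 5 libraries (unthinned 8.70% to 33.3% over all 6), and 0 of 23 in Sham L, which allows a share of up to 13.04%. Myeloid-gated nuclei had 44.4%, 44.1%, 18.7%, 15.1%, 22.0% and 12.2%. The share in neuron-gated nuclei lay within the 95% interval of the vascular share in each library. Those intervals are wide, since a library held only 21 to 83 vascular-gated nuclei. The neuron share is not read as expression, and its source was not tested.

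**Figure D5:**
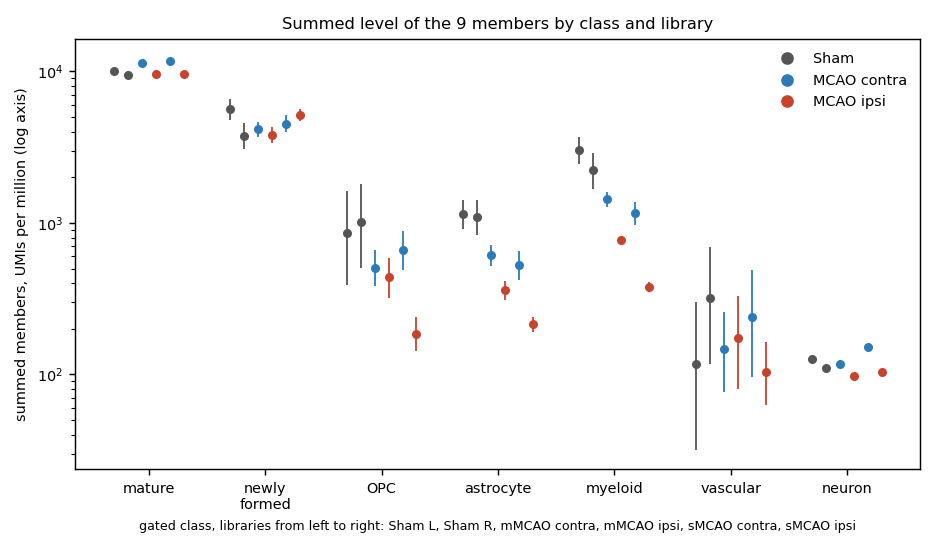
Sum of the 9 genes in CPM (y axis, log scale) by gated class (x axis) and library, coloured by group, with 95% Poisson intervals that cover counting error only. Mature-gated nuclei sit at 9438 to 11761 CPM and neuron-gated nuclei at 97.2 to 151 CPM, and the myeloid-gated values run from 3019 CPM in Sham L to 379 CPM in sMCAO ipsi.

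In myeloid-gated nuclei no gene passed in MCAO ipsi against MCAO contra (0 of 4738 genes, 0%, with edgeR), with 554 genes (11.7%) at an unadjusted p below 0.05 and 2 called by DESeq2, neither of them a member. Of the 9 genes, 7 passed the filter on low counts, all but Cnp and Cldn11, and a member passes it where it is high, so no count over them is read. Mbp was 1776, 1014, 806, 388, 591 and 229 CPM. Both MCAO ipsi libraries lay below the others, with a log2 fold change of -1.24 against MCAO contra (SE 0.41, adjusted p = 0.421). Mobp was likewise lowest there, at 414, 487, 142, 91.3, 146 and 23.6 CPM (-1.42, SE 0.59, adjusted p = 0.423). Myrf, which encodes no myelin protein, was 88.8, 40.5, 61.6, 17.7, 72.8 and 15.6 CPM (-2.04, SE 0.56, adjusted p = 0.421). The others were at -1.91 (Opalin), -1.17 (Mag), -0.97 (Mal) and -0.69 (Mog), with adjusted p from 0.421 to 0.806. These values turned on which MCAO ipsi library was in the fit, and the 1 library left in each case is assumed to vary like the other groups. Without sMCAO ipsi, Mog was at 0.20 and Opalin at -1.09, and 119 genes were called, 88 of them (2.15%) lower, with Mbp among them (-0.90, adjusted p = 0.0129). Without mMCAO ipsi, 1157 of 4322 genes were called, 716 of them (16.6%) lower, with Opalin (-3.36), Mobp (-2.64), Mog (-2.56), Mag (-1.92) and Mbp (-1.69) among the lower. The sum of the 9 in the lesioned hemisphere was 0.538 times that in the opposite hemisphere in moderate (95% interval 0.470 to 0.617) and 0.328 times in severe infarction (0.271 to 0.399).

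In neuron-gated nuclei 7 of the 9 genes had a log2 fold change below 0 in MCAO ipsi against Sham, with a median of -0.59 beside 0.02 over all genes. Of 16333 genes, 1071 (6.56%) were called in MCAO ipsi against Sham, 273 (1.67%) of them lower. Among the 9, Mag was the 1 gene called. It was 7.46 and 6.31 CPM in the Sham libraries, 5.74 and 7.55 CPM in MCAO contra and 4.19 and 5.10 CPM in MCAO ipsi. Both MCAO ipsi libraries were the lowest in CPM, with a log2 fold change of -0.69 (SE 0.18, adjusted p = 0.0421). Neuron-gated nuclei of sMCAO ipsi were the deepest, with a median of 6964 UMIs against 2487 to 4172.5 in the other libraries. Per nucleus Mag was highest in sMCAO ipsi (0.0379 UMIs), whereas Opalin (0.0263) and Mal (0.0264) were highest in sMCAO contra. The part of depth in the CPM values was not tested. Mag was not called without Sham L (adjusted p = 0.308), without Sham R (0.110), without mMCAO contra (0.0592) or without sMCAO contra (0.0589), and without mMCAO ipsi its change fell short of the size asked (-0.60, adjusted p = 0.0385). Over 15 other settings it was called in 8. The others gave -0.84 (Opalin), -0.81 (Mal), -0.69 (Mobp), -0.59 (Mog), -0.28 (Mbp), -0.17 (Myrf), 0.16 (Cldn11) and 0.36 (Cnp), with adjusted p from 0.0857 to 0.635. Of the lists, Omg, a glycoprotein that neurons also make, was higher (0.77), and Aspa (-0.85), Sox8 (-1.13) and Tmem98 (-0.92) were lower. None of these 4 calls held without Sham L or without Sham R, those of Sox8 and Tmem98 were also lost without either MCAO contra library, and that of Omg without mMCAO ipsi (0.57).

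Against MCAO contra, 539 genes (3.3%) were called in neuron-gated nuclei and none of the 9 by edgeR. With edgeR, 7 of the 9 and 23.6% of all genes were at an unadjusted p below 0.05. DESeq2 called 2 of the 9 (Mal and Mobp) and 3.13% of all genes. Mal was 3.50 and 6.75 CPM in mMCAO contra and sMCAO contra and 2.43 and 2.53 CPM on the side of the lesion (-1.004, SE 0.29, adjusted p = 0.0786). Mobp was 9.29 and 14.6 CPM against 5.95 and 8.02 CPM (-0.77, SE 0.23, adjusted p = 0.0899). Both lay lower in the lesioned hemisphere in both severities. With the pool of rats as a block, Mal (-0.93, adjusted p = 0.0309) and Mobp (-0.74, adjusted p = 0.0183) were called lower, with 224 genes (1.37%) lower in all. The others were at -0.82 (Opalin), -0.56 (Mog), -0.51 (Mag), -0.34 (Myrf), -0.32 (Mbp), -0.16 (Cldn11) and 0.19 (Cnp), with adjusted p from 0.0844 to 0.703. The ratio of the lesioned to the opposite hemisphere was 0.855 (95% interval 0.689 to 1.06) in moderate and 0.297 (0.206 to 0.418) in severe infarction for Opalin. It was 0.696 (0.530 to 0.909) and 0.374 (0.270 to 0.511) for Mal, and 1.01 (0.746 to 1.37) and 1.27 (0.897 to 1.78) for Cnp. The log2 fold change of Opalin was -0.40 without sMCAO ipsi and -1.56 without mMCAO ipsi, where it was called (adjusted p = 0.00105). Mal (-0.96) and Mobp (-0.92) were called without sMCAO ipsi. The part of free RNA, of the depth of the nuclei, and of how many oligodendrocytes a library held, in these differences was not tested.

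The mixture of the genes differed between classes. UMIs of Mbp per UMI of Mobp were 2.80, 3.76, 4.07, 4.04, 3.52 and 4.02 in mature-gated nuclei. In neuron-gated nuclei there were 6.64, 7.58, 7.95, 10.5, 6.01 and 8.18. The neuron value was the higher in 6 of 6 libraries, and the intervals did not overlap in any (2.55 to 3.08 against 6.003 to 7.37 in Sham L). Newly formed-gated nuclei had 9.64, 8.88, 13.9, 10.4, 5.78 and 8.76, and myeloid-gated nuclei 4.29, 2.08, 5.67, 4.25, 4.06 and 9.72. The Golli transcripts named above are counted in Mbp and were not separated, and the source of this RNA was not tested.

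Across 40 sums of class and library, the genes whose log2(CPM + 5) was most like the mean of the 9 included Carns1 (Pearson r = 0.972), St18 (0.953), Atp10b (0.947) and ENSRNOG00000027542 (0.941), of 3680 genes compared. St18 is a gate gene, which ties it to the mature-gated sums. The members themselves had r from 0.744 (Cnp) to 0.967 (Opalin), each with the mean of the other members. The 40 points share libraries, depth and gates, and the values are given as a description.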

How the data were processed

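Nuclei of the 6 libraries were sequenced with a droplet-based 5' kit. The authors aligned reads to mRatBN7.2 with Cell Ranger 7.0.0, intronic reads included, and deposited raw UMI counts per gene and nucleus, before any removal of free RNA or doublets. Reads were not used here. Genes were matched by symbol.

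Nuclei had to meet the study's limits, a minimum of 500 UMIs, 250 to 5000 genes and no more than 5% of UMIs from genes whose symbol starts with Mt-, which leaves out AY172581.24 and AY172581.9. Nuclei were gated on summed UMIs of marker genes. Besides the oligodendrocyte gates, a class needed 2 UMIs of its markers. It also needed 1000 CPM (UMIs scaled to a total of 1000000) for OPC or 2000 CPM for astrocyte, myeloid and vascular nuclei. Neurons needed 4000 CPM and 3 UMIs. Every class but neurons, the oligodendrocyte gates included, needed under 2000 CPM of neuron markers. Some markers were not used here, since 7 of the heat-shock, 9 of the myeloid, 6 of the vascular and 3 of the OPC genes were found. Nuclei that passed 2 gates were left out in place of a doublet caller. UMIs were summed per class and library and tested with edgeR 4.0.16 (R 4.3.3, limma 3.58.1; filterByExpr, TMM, quasi-likelihood F test with Benjamini-Hochberg adjustment over all genes tested), with all 6 libraries in the fit, no block between groups, and the library as block between stages. DESeq2 1.42.0, RLE factors, no filter on low counts, other gates, all deposited nuclei, each library left out and genes at least 4 times as high in neurons left out were the alternatives. Where a library was left out, the 1 left in its group was assumed to vary like the other groups. Intervals of single libraries are 95% exact Poisson (CPM, and ratios of counts by exact binomial) and cover counting error only. Shares of nuclei were read after thinning to 500 UMIs. The fit was tested on simulated counts with changes of 1, 2 and 3 on the log2 scale, placed in genes drawn at random from all tested. For mature-gated nuclei in MCAO ipsi against Sham, 11.94%, 65.67% and 84.85% of these were recovered. Between stages the shares were 71.64%, 100% and 100%. Tables and plots were made with Python 3.11.15, numpy 2.4.6, scipy 1.17.1, pandas 2.3.3 and matplotlib 3.10.9.

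Contra and ipsi libraries of a severity came from the same rats, per the labels. Deviations from the group means correlated at -0.0391 between such libraries over 7779 genes. The 9 genes, the lists and the gates were chosen with earlier results of these data known, and the thresholds of the gates were set with the data in view. All 9 genes were named in every comparison. Of the lists, the called genes were named, at most 6 a list and comparison by largest fold. Some genes of the lists are not reported here.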

Additional observations from a re-analysis of the deposited data

How the results depend on the processing

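With 2 pooled libraries a group, small changes could not be separated from the spread between libraries. In simulated counts of mature-gated nuclei most changes of 1 on the log2 scale were missed, in genes drawn at random from all tested. Mal and Cnp in newly formed-gated nuclei rested on 1 to 14 UMIs a library. No called gene changed direction under any alternative. Between newly formed and mature nuclei the 7 calls held under all alternatives. Over the fits that left out a library, 7 to 8 of the 9 were called, beside 22.6% to 32.6% of all genes. Without the filter on low counts 8 were called, beside 8.54% of all genes, and the median of all genes moved to -0.42. Shares in brackets below are those of all genes called under the same setting. In mature-gated nuclei, MCAO ipsi against Sham gave 1 (Cldn11) without the filter (4.42%) and with gates at 0.5 of the threshold (5.12%). It also gave 1 (Cldn11) with a gate from 1 UMI (4.66%), chosen after the data were seen. MCAO ipsi against MCAO contra gave 1 (Mal) without the filter (3.92%). MCAO contra against Sham gave 1 (Mal) without the filter (0.265%) and 2 (Cldn11 and Mal) with only those groups in the fit (2.32%). In neuron-gated nuclei, MCAO ipsi against Sham gave 5 without the filter (7.4%), 0 with gates at 2 times the threshold (2.22%) and 0 with only those groups (4.08%). MCAO ipsi against MCAO contra there gave 2 with DESeq2 (3.13%), 3 without the filter (4.44%) and 2 with the rat pool as replicate block (5.04%). In mature-gated and in neuron-gated nuclei, some calls among the 9 also changed with a library left out. In myeloid-gated nuclei no count over the 9 is read, since a member passes the filter where it is high. The replicate block gave 197 called genes in mature-gated nuclei (84 lower, 1.08%) and 29 in myeloid-gated nuclei (19 lower, 0.401%), none of them among the 9, and it changed no other call. Over the alternatives the number of all genes called ran from 0 to 1255 and 0 to 1250 in mature-gated nuclei for MCAO ipsi against Sham and against MCAO contra, from 0 to 171 for MCAO contra against Sham, from 7 to 2445 and 19 to 1405 in neuron-gated nuclei, from 0 to 1157 in myeloid-gated nuclei and from 711 to 1502 between stages. With nuclei of 2 gates kept, MCAO ipsi against Sham called 2 genes in mature-gated nuclei. The ratio of the 9 genes in heat-shock-high to other mature-gated nuclei was 0.744 with gates at 2 times the threshold (5 nuclei) and 1.05 to 1.1005 under the other alternatives planned. Its tests with RLE, DESeq2 or no filter and its fits without a library were not run, because 1 library held such nuclei. Within the study's limits the sum of the 9 over all nuclei was 353.6 CPM in Sham L and 526.5 CPM in mMCAO contra. The cause of these changes was not tested.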
